A study of Rattus norvegicus with 9 samples.

Results

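The transforming growth factor beta (TGF-beta) pathway was followed through 10 genes of its core: the ligands Tgfb1, Tgfb2 and Tgfb3, the receptors Tgfbr1, Tgfbr2 and Tgfbr3, the signal carriers Smad2 and Smad3, and the inhibitors Smad7 and Skil. They were chosen by symbol, and all 10 were found among the 18629 genes of the deposited table. The cells were primary cardiomyocytes of newborn (1 to 2 days) Sprague-Dawley rats, and every group had spent 48 h under high glucose (33 mM) and high insulin (100 nM). Before that, the cells of every group were plated for 18 to 20 h in 10% serum. They were then precultured for 14 h in 1 g/L glucose with 1% serum. In 3 libraries the cells carried an adenovirus for green fluorescent protein (Ad-GFP, labelled genotype WT), in 3 an adenovirus for wild-type Yap1 (Ad-Yap1 WT, labelled Yap1 overexpression) and in 3 an adenovirus for a short hairpin RNA against Yap1 (Ad-Yap1 shRNA, labelled Yap1 knock down). No group carried a control hairpin, so effects of the hairpin vector and of lower Yap1 cannot be told apart. The labels do not say whether replicates are separate isolations or dishes, so the p-values measure the spread between these samples, which may be technical.

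TGF-beta ligands are secreted in a latent form, held by their propeptides and by latent TGF-beta binding proteins in the matrix, and are set free by integrins and proteases. A free ligand joins the type II receptor (Tgfbr2) to the type I receptor (Tgfbr1), with the coreceptor betaglycan (Tgfbr3) presenting it, and the type I receptor phosphorylates SMAD2 and SMAD3, which enter the nucleus with SMAD4. SMAD7 blocks the receptor and SnoN, the product of Skil, represses SMAD-dependent transcription, and both genes are themselves known targets of the pathway, which makes them feedback inhibitors. In the heart the pathway is known for its part in valve formation and in fibrosis. Yap1, the coactivator that Hippo signalling restrains, works through TEAD factors and can also bind SMADs.

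Tgfb3 had the largest fall of the 10 genes and Skil a large rise, though smaller than that of Smad7. Among the 10 genes only Skil held a match to a motif searched here. The windows around the transcript starts of Tgfb3 and Skil are shown, and that of Smad7 is not. They come from RefSeq on the rat build GRCr8, not the build of the expression table, and span 250 bases before to 50 bases from the start on. The Tgfb3 window is chr6:111456897-111457196 (minus strand) and the Skil window chr2:114203523-114203822 (minus strand). Capitals mark a cyclic AMP response element, TGACGTCA, a binding motif of CREB and ATF factors.
Tgfb3: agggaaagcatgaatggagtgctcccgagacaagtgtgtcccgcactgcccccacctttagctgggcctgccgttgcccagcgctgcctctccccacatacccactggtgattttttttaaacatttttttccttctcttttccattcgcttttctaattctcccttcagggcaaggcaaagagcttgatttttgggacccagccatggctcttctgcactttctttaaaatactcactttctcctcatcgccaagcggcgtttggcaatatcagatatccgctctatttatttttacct
Skil: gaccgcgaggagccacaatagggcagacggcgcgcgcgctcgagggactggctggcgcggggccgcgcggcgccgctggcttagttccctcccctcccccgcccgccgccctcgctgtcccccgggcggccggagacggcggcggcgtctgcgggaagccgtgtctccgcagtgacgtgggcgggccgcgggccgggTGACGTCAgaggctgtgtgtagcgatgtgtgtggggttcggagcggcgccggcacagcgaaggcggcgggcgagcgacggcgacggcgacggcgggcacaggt
Skil holds this element with its first base at position -53 from the annotated start, and 1.83% of the 33469 windows of this length in the table hold it on either strand. No window of the 10 genes holds the letters GTCTAGAC (the palindromic SMAD binding element, in 0.197% of all windows), CAGACA (the core of the CAGA box bound by SMAD3, in 21.1%) or GGAATG (the core of the TEAD motif, in 14.2%), searched on both strands. No motif overlapped another. The windows differ in base composition: Tgfb3 is 47.7% G and C, below the median of 51.7% over all windows. Skil is 77.3% and Smad7 77.7%, above 98.1% and 98.2% of them. The Smad2 windows are higher still, above 99.1% and 99.7% of all windows, although Smad2 changed far less than these genes. Tgfbr1 is at 74.7%, Tgfbr3 and Smad3 at 69.7%, Tgfb2 and Tgfbr2 at 59.0% and Tgfb1 at 57.7%. Whether base composition goes with the direction of change was not tested.

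Depth differed between the groups. Assigned reads per library numbered 14868174 to 15368465 for GFP, 10960046 to 11497108 for Yap1 WT and 6103220 to 6357398 for Yap1 shRNA. Levels are given as CPM, a gene's reads relative to all assigned reads after TMM scaling, and, where different genes are compared, as the deposited TPM, which allow for transcript length. The targeted gene followed its labels: Yap1 stood at 197, 198 and 190 CPM with GFP, at 559, 812 and 622 CPM with Yap1 WT and at 95.4, 96.0 and 95.3 CPM with the shRNA. Its mean TPM was 54.1 with GFP, 415 with Yap1 WT and 31.3 with the shRNA, so the size of the rise depends on the measure. The marker genes of cardiomyocytes were abundant with GFP and fell with either vector. Summed over 10 markers they ran from 34954 to 36590 TPM with GFP, from 10083 to 14910 TPM with Yap1 WT and from 2376 to 2943 TPM with the shRNA. In bulk RNA, fewer cells of a type and less RNA per cell cannot be told apart.

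Most genes of the table differed between the groups, and the 10 genes have to be read against that. With Yap1 WT, 4 of the 10 rose and 4 fell against GFP (edgeR quasi-likelihood test, Benjamini-Hochberg adjusted p under 0.05), where 63.8% of the 13708 genes tested were called, 32.0% higher and 31.8% lower. On library size alone, or on the deposited TPM, 2 of the 10 fell with Yap1 WT. With the shRNA, 5 rose and 3 fell, against 78.3% of all genes called (39.2% higher and 39.1% lower). Between Yap1 WT and the shRNA all 10 differed, 3 higher and 7 lower with Yap1 WT, against 62.5% of all genes called (31.2% higher and 31.3% lower). All 10 genes passed the filter on low counts. The median log2 fold change of the 10 was -0.02, 0.16 and -0.40 in the 3 comparisons, and that of all genes 0.00, -0.01 and 0.04. The comparisons share libraries: both comparisons with GFP use the same 3 GFP libraries.

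**Figure D1:**
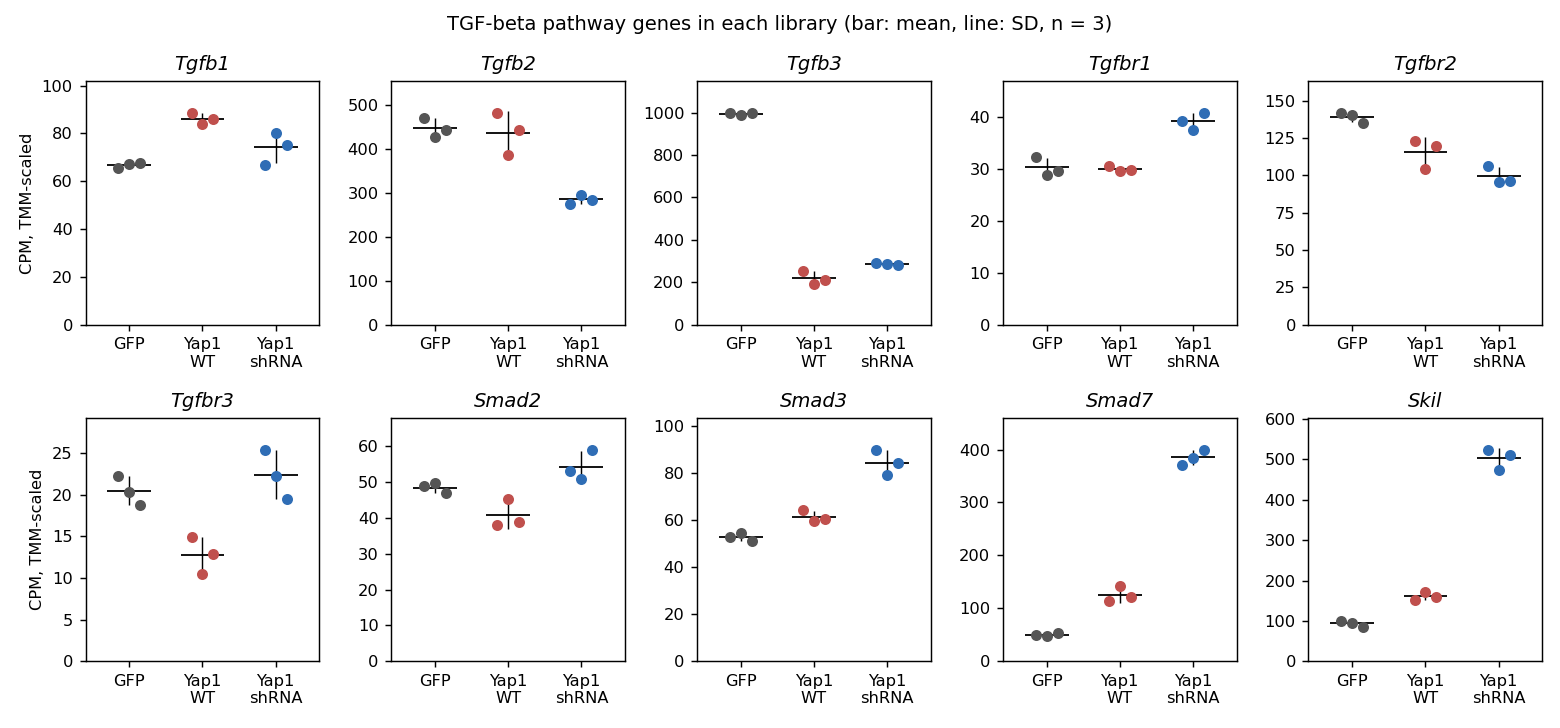
Level of each of the 10 genes in every library (y axis, CPM after TMM scaling, each panel with its own scale from 0), by group (x axis), with the mean of 3 libraries as a bar and the SD as a line. Tgfb3 lies between 986 and 999 CPM with GFP and at 291 CPM or less in the other 6 libraries, while Smad7 and Skil are lowest with GFP and highest with the shRNA.

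In GFP cells the ligand transcripts were the most abundant of the 10 per length, and Tgfb3 was the first among them. Tgfb3 stood at 477 ± 11.6 TPM (mean ± SD, n = 3 here and below), above 98.3% of the genes in the table. Tgfb2 followed at 115 ± 8.37 TPM, Tgfb1 at 67.6 ± 0.601 TPM, Tgfbr2 at 40.1 ± 1.89 TPM and Smad2 at 25.0 ± 0.810 TPM. Skil (16.4 ± 1.51 TPM) and Smad7 (15.9 ± 1.34 TPM) overlapped between libraries, and Smad3 was just below them at 13.4 ± 0.427 TPM. Tgfbr3 (6.74 ± 0.683 TPM) and Tgfbr1 (6.73 ± 0.528 TPM) came last and overlapped. With Yap1 WT the order began with Tgfb2 (123 ± 12.9 TPM) and Tgfb3 (118 ± 18.0 TPM), which overlapped, then Tgfb1 (98.0 ± 3.23 TPM) and Smad7 (44.1 ± 5.78 TPM), with Tgfbr2 (36.9 ± 3.99 TPM) and Skil (31.4 ± 1.98 TPM) overlapping next. Smad2 (23.5 ± 2.40 TPM), Smad3 (17.4 ± 0.837 TPM), Tgfbr1 (7.45 ± 0.214 TPM) and Tgfbr3 (4.71 ± 0.825 TPM) closed it without overlap. With the shRNA, both inhibitors moved up among the ligands: Tgfb3 (160 ± 8.04 TPM) was followed by Smad7 (141 ± 5.89 TPM), Skil (101 ± 8.96 TPM), Tgfb1 (86.9 ± 4.85 TPM) and Tgfb2 (86.0 ± 2.63 TPM), of which the last pair overlapped. Tgfbr2 (32.9 ± 4.61 TPM) and Smad2 (32.3 ± 2.79 TPM) overlapped next, Smad3 stood at 24.8 ± 2.53 TPM, and Tgfbr1 (10.1 ± 0.617 TPM) overlapped with Tgfbr3 (8.57 ± 1.42 TPM).

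The ligands did not move together. Tgfb3 fell with either vector, Tgfb2 fell with the shRNA, and Tgfb1 rose with Yap1 WT. Tgfb3 (NCBI gene 25717, chromosome 6, 109913757 to 109936217 on rn6, the build in the submitters' notes) read 999, 986 and 997 CPM with GFP, 254, 191 and 213 CPM with Yap1 WT and 291, 286 and 279 CPM with the shRNA. All 6 libraries with a Yap1 vector were far below the GFP libraries, and the Yap1 WT libraries were below the shRNA libraries without overlap. Tgfb3 was 4.53-fold lower with Yap1 WT than with GFP (log2 fold change -2.18, SE 0.08, adjusted p = 3.78e-10) and 3.48-fold lower with the shRNA (-1.80, SE 0.08, adjusted p = 4.53e-10). The direct difference between Yap1 WT and shRNA was 1.30-fold (-0.38, SE 0.08, adjusted p = 0.00147).

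Tgfb2 (NCBI gene 81809, chromosome 13, 105039639 to 105143311) read 472, 426 and 443 CPM with GFP, 483, 386 and 443 CPM with Yap1 WT and 276, 296 and 285 CPM with the shRNA. The GFP and Yap1 WT libraries overlapped, and the shRNA libraries were below both. Its fall with the shRNA was 1.57-fold (log2 fold change -0.65, SE 0.08, adjusted p = 3.86e-06). Tgfb2 did not pass the test with Yap1 WT (-0.03, SE 0.07, adjusted p = 0.727), and it was 1.53-fold higher in Yap1 WT than in shRNA cells (0.62, SE 0.08, adjusted p = 1.38e-05). Tgfb1 (NCBI gene 59086, chromosome 1, 82480875 to 82497196), the ligand best known from fibrosis, read 65.5, 67.1 and 67.5 CPM with GFP, 88.6, 84.0 and 86.1 CPM with Yap1 WT and 67.0, 80.1 and 75.4 CPM with the shRNA. The Yap1 WT libraries lay above all others, and the shRNA libraries overlapped those with GFP. Tgfb1 was 1.29-fold higher with Yap1 WT than with GFP (0.37, SE 0.06, adjusted p = 0.000178). With the shRNA it stood at the threshold (0.15, SE 0.07, edgeR adjusted p = 0.049), a call that held in 7 of 21 other settings and was lost as any GFP library or any Yap1 WT library was left out, or shRNA replicate 2 or 3. In the authors' deposited table that comparison has a log2 fold change of 0.15 and a q-value of 0.156. Tgfb1 was 1.16-fold higher in Yap1 WT than in shRNA cells (0.22, SE 0.07, adjusted p = 0.0112).

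The mix of ligand transcripts was taken as shares within each library. These shares add up to the whole, so they and their comparisons are linked, and a fall of Tgfb3 alone raises the other shares. With the shRNA the share of Tgfb2 was higher than with GFP although its level was 1.57-fold lower. Tgfb3 made up 71.8%, 72.7% and 72.5% of the summed TPM of the 3 ligands with GFP, 36.8%, 33.4% and 33.9% with Yap1 WT and 49.9%, 46.5% and 47.6% with the shRNA. Thus Tgfb3 was the main ligand transcript with GFP, and with Yap1 WT the mean shares of the 3 ligands lay between 29.1% and 36.2%. The share of Tgfb2 was 17.5% ± 0.731 with GFP, 36.2% ± 0.755 with Yap1 WT and 25.9% ± 0.287 with the shRNA, and that of Tgfb1 was 10.2% ± 0.255, 29.1% ± 1.96 and 26.1% ± 1.73. For every ligand the shares did not overlap between the groups, except for Tgfb1 between Yap1 WT and the shRNA. The exact two-sided permutation test gave p = 0.10 for the 8 comparisons without overlap, the smallest that 3 against 3 libraries allow, and p = 0.20 for the exception (0.11 and 0.20 after adjustment over 9 tests), so this design cannot pass the threshold for a share. The summed TPM of the ligands was 660 ± 20.3 with GFP, 339 ± 33.7 with Yap1 WT and 333 ± 6.95 with the shRNA.

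**Figure D2:**
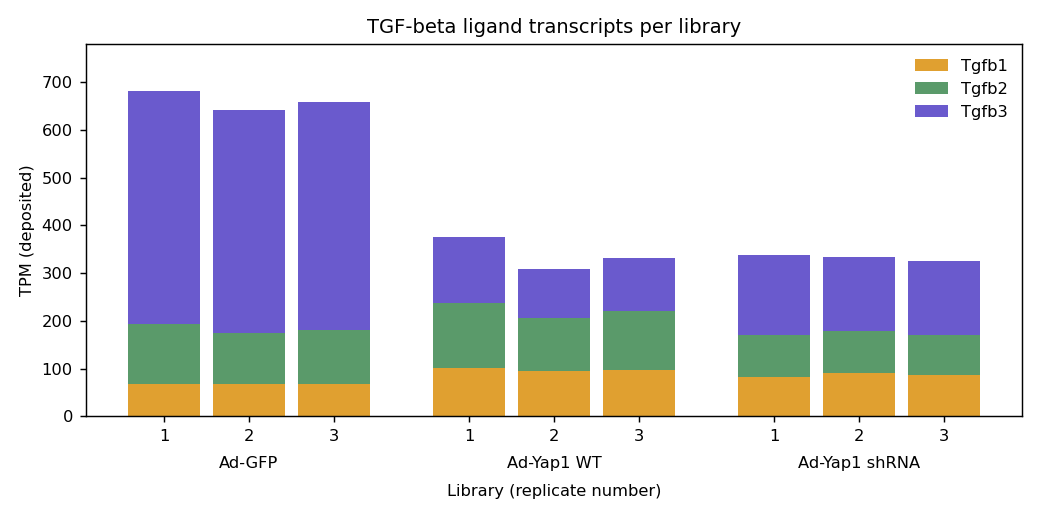
Deposited TPM of Tgfb1, Tgfb2 and Tgfb3 (y axis, stacked from 0) in each library (x axis, replicate number within group). The summed height runs from 641 to 681 TPM with GFP and from 308 to 375 TPM in the other 6 libraries, and the Tgfb3 segment shrinks most.

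The signalling receptors moved in opposite directions with the shRNA. Tgfbr2, the type II receptor (NCBI gene 81810, chromosome 8, 124310288 to 124399345), read 142, 140 and 135 CPM with GFP, 123, 104 and 120 CPM with Yap1 WT and 106, 95.5 and 96.3 CPM with the shRNA. It fell 1.40-fold with the shRNA (log2 fold change -0.49, SE 0.07, adjusted p = 2.71e-05) and 1.20-fold with Yap1 WT (-0.27, SE 0.07, adjusted p = 0.00345). The call with Yap1 WT was lost on library size alone (-0.13, SE 0.07, edgeR adjusted p = 0.0977) and on log2(TPM + 1) (-0.12, limma adjusted p = 0.335), and library size alone raised the median of all genes by 0.14 on the log2 scale. Between Yap1 WT and the shRNA the Tgfbr2 libraries overlapped at 104 and 106 CPM (0.22, SE 0.07, adjusted p = 0.0161), and that call was lost without Yap1 WT replicate 3 (edgeR adjusted p = 0.0562), without shRNA replicate 2 or 3 (0.0587 each), and on log2(TPM + 1) (0.17, limma adjusted p = 0.183) and log2(TPM + 0.1) (0.185).

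Tgfbr1, the type I receptor kinase (NCBI gene 29591, chromosome 5, 63056071 to 63119635), read 32.3, 29.0 and 29.8 CPM with GFP, 30.7, 29.6 and 29.8 CPM with Yap1 WT and 39.3, 37.6 and 40.9 CPM with the shRNA. The shRNA libraries lay above all others. Tgfbr1 rose 1.29-fold with the shRNA (log2 fold change 0.37, SE 0.07, adjusted p = 0.000295) and did not pass the test with Yap1 WT (-0.01, SE 0.07, adjusted p = 0.863). The ratio of Tgfbr2 to Tgfbr1 TPM within a library accordingly went from 5.97 ± 0.394 with GFP to 4.96 ± 0.492 with Yap1 WT and 3.25 ± 0.331 with the shRNA. Tgfbr3, the coreceptor betaglycan (NCBI gene 29610, chromosome 14, 3506416 to 3682553), read 22.3, 20.4 and 18.8 CPM with GFP, 14.9, 10.5 and 12.9 CPM with Yap1 WT and 25.4, 22.3 and 19.5 CPM with the shRNA. It was the receptor that fell most with Yap1 WT, 1.60-fold (-0.68, SE 0.13, adjusted p = 0.000456), and with the shRNA its libraries overlapped those with GFP (0.13, SE 0.13, adjusted p = 0.371). Counting between 121 and 321 reads, Tgfbr3 had the largest SE of the 10 genes. Between the Yap1 vectors, Tgfbr1 was 1.31-fold lower with Yap1 WT than with the shRNA (-0.39, SE 0.07, adjusted p = 0.000406) and Tgfbr3 1.75-fold lower (-0.81, SE 0.14, adjusted p = 0.000224).

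The SMADs that carry the signal changed less than the inhibitors. Smad3 (NCBI gene 25631, chromosome 8, 68569530 to 68678349) read 53.1, 54.5 and 51.2 CPM with GFP, 64.3, 59.7 and 60.6 CPM with Yap1 WT and 90.1, 79.1 and 84.4 CPM with the shRNA. The 3 groups did not overlap. Smad3 rose 1.60-fold with the shRNA (log2 fold change 0.68, SE 0.06, adjusted p = 4.21e-07) and 1.16-fold with Yap1 WT (0.22, SE 0.06, adjusted p = 0.00756), a call lost when all libraries were thinned to 6103220 reads (0.19, SE 0.08, edgeR adjusted p = 0.0577). It was 1.37-fold lower with Yap1 WT than with the shRNA (-0.46, SE 0.06, adjusted p = 3.83e-05). Smad2 (NCBI gene 29357, chromosome 18, 72550107 to 72612078) read 48.7, 49.7 and 46.8 CPM with GFP, 38.0, 45.2 and 38.8 CPM with Yap1 WT and 53.1, 50.6 and 58.9 CPM with the shRNA. It was 1.19-fold lower with Yap1 WT than with GFP (-0.25, SE 0.08, adjusted p = 0.0128) and did not pass the test with the shRNA (0.16, SE 0.08, adjusted p = 0.0776). The fall was not called without Yap1 WT replicate 3 (-0.22, SE 0.09, edgeR adjusted p = 0.0545), on library size alone (-0.11, SE 0.08, adjusted p = 0.227) or at equal depth (-0.19, SE 0.09, adjusted p = 0.0693). With the shRNA, Smad2 was called higher with RLE scaling (0.19, SE 0.08, edgeR adjusted p = 0.049), at equal depth (0.25, SE 0.08, adjusted p = 0.0153), on log2(TPM + 1) (0.36, limma adjusted p = 0.00284) and without Yap1 WT replicate 2 (0.16, SE 0.07, adjusted p = 0.0453). The test between the vectors had Smad2 1.33-fold lower with Yap1 WT (-0.42, SE 0.08, adjusted p = 0.000732). The ratio of Smad2 to Smad3 TPM was 1.87, 1.86 and 1.87 with GFP, 1.21, 1.55 and 1.31 with Yap1 WT and 1.20, 1.30 and 1.42 with the shRNA, lower in all 6 libraries with a Yap1 vector. Smad2 and Smad3 are close relatives, so how their shared reads were split is uncertain.

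The inhibitors Smad7 and Skil had the largest rises of the 10 genes, and both were higher in each Yap1 group than with GFP. Smad7 (NCBI gene 81516, chromosome 18, 71395830 to 71424164) read 49.1, 48.6 and 53.8 CPM with GFP, 114, 143 and 121 CPM with Yap1 WT and 371, 384 and 400 CPM with the shRNA. Skil (NCBI gene 114208, chromosome 2, 115862923 to 115891304) read 101, 95.1 and 86.3 CPM with GFP, 151, 171 and 160 CPM with Yap1 WT and 524, 473 and 510 CPM with the shRNA. For each gene the 3 groups were apart, with GFP lowest and the shRNA highest. Smad7 rose 7.62-fold with the shRNA (log2 fold change 2.93, SE 0.08, adjusted p = 1.39e-11) and 2.49-fold with Yap1 WT (1.32, SE 0.08, adjusted p = 2.23e-08). Skil rose 5.34-fold with the shRNA (2.42, SE 0.07, adjusted p = 1.86e-11) and 1.71-fold with Yap1 WT (0.77, SE 0.07, adjusted p = 7.62e-07). Between the Yap1 vectors the genes differed by a similar factor, with Smad7 3.06-fold lower with Yap1 WT (-1.61, SE 0.08, adjusted p = 4.67e-09) and Skil 3.12-fold lower (-1.64, SE 0.07, adjusted p = 2.01e-09). These values stand beside quartiles of all genes at -0.70 and 0.75 with the shRNA and at -0.40 and 0.40 with Yap1 WT.

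**Figure D3:**
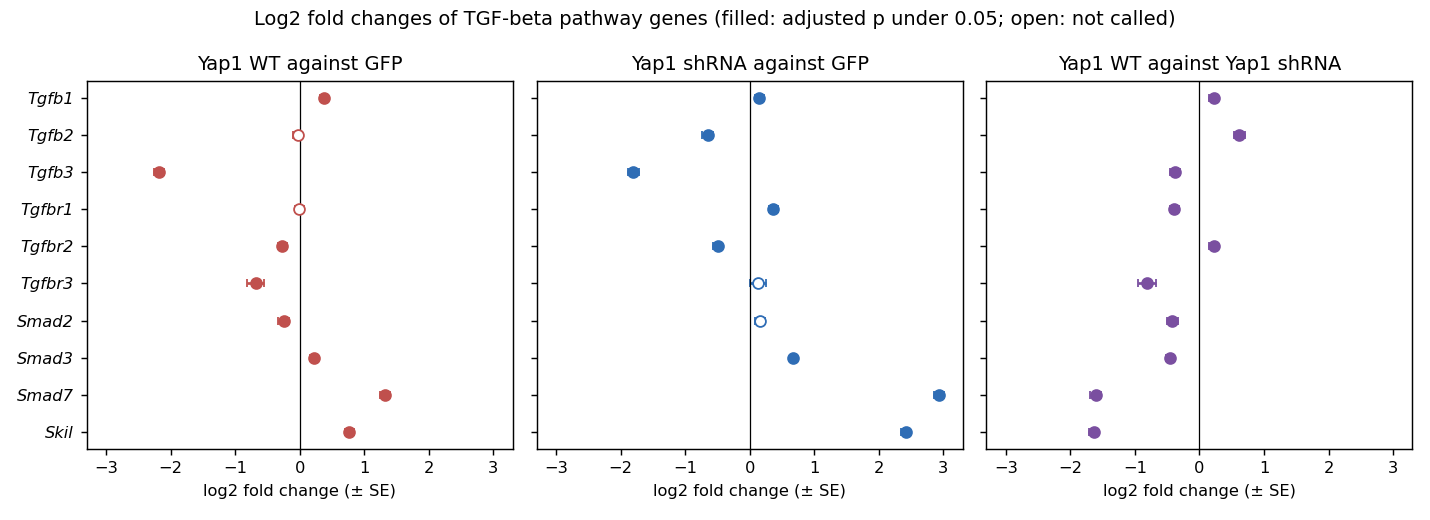
Log2 fold change (x axis, ± SE of edgeR's fit) of the 10 genes (y axis) in the 3 comparisons, filled where called and open where not. Tgfb3 lies far to the left in both comparisons with GFP (-2.18 and -1.80), Smad7 and Skil to the right, and the other 7 genes within 0.68 of zero there.

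Per length, both inhibitors were above the sum of Smad2 and Smad3 in shRNA cells and below it in GFP cells. Smad7 TPM over the summed TPM of Smad2 and Smad3 was 0.402, 0.375 and 0.465 with GFP, 0.991, 1.17 and 1.06 with Yap1 WT and 2.25, 2.67 and 2.50 with the shRNA. For Skil the same ratio was 0.428 ± 0.0267 with GFP, 0.767 ± 0.0297 with Yap1 WT and 1.76 ± 0.0509 with the shRNA. These ratios are taken within a library, so the scaling between libraries does not enter them, and no test was made on them.

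**Figure D4:**
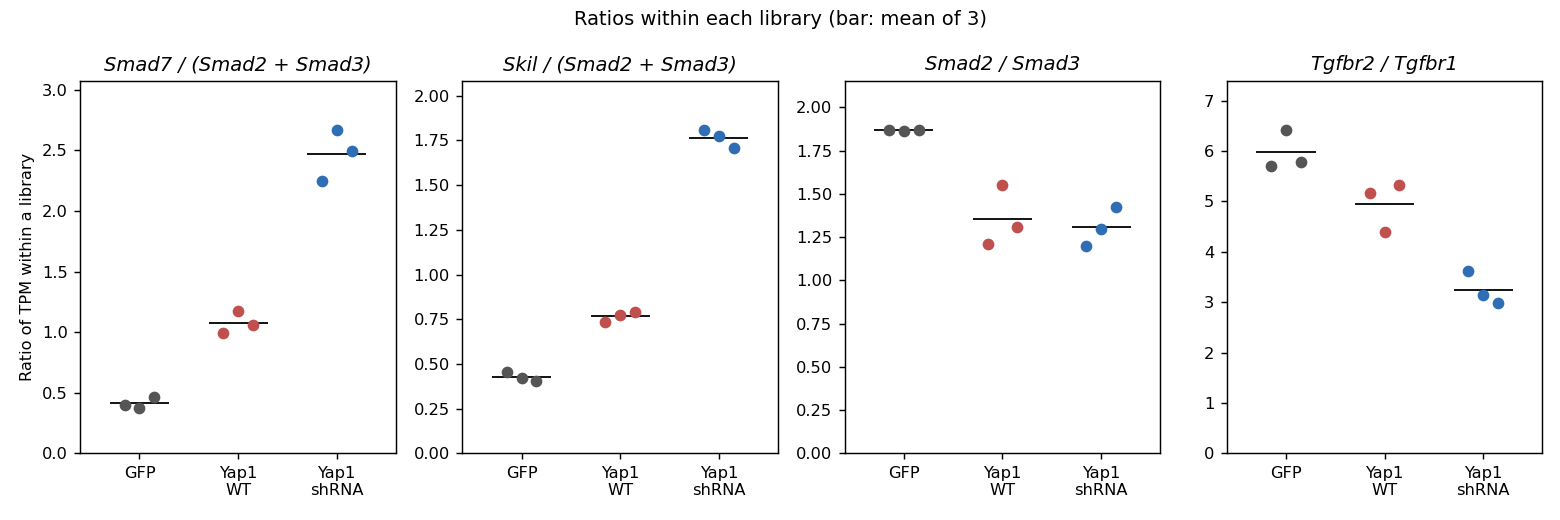
Ratios of TPM within each library (y axis, from 0, each panel with its own scale) by group (x axis), with the mean of 3 libraries as a bar. Smad7 and Skil relative to Smad2 plus Smad3 are lowest with GFP and highest with the shRNA, and Tgfbr2 relative to Tgfbr1 runs the other way, from 5.97 to 3.25.

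Counts over the other pathway genes are read against the shares of all genes called, which were 32.0% higher and 31.8% lower with Yap1 WT and 39.2% higher and 39.1% lower with the shRNA. A list of 12 genes was drawn up around the latent ligand and its release, and not all of them bind it. In that list 3 rose and 6 fell with Yap1 WT (median log2 fold change -0.16), and 3 rose and 7 fell with the shRNA (median -0.54). Lrrc32, which encodes GARP, a membrane protein that tethers latent TGF-beta, rose from 28.4 ± 2.26 CPM with GFP to 78.0 ± 4.25 with Yap1 WT (2.75-fold, adjusted p = 8.65e-09) and 228 ± 19.6 with the shRNA (8.02-fold, adjusted p = 1.31e-11). The integrin subunit Itgb5 went the other way, from 356 ± 7.79 CPM to 243 ± 22.7 with Yap1 WT and 82.4 ± 2.50 with the shRNA (4.32-fold lower, adjusted p = 3.56e-11). The latent TGF-beta binding protein Ltbp4 fell 3.38-fold with Yap1 WT (adjusted p = 2.69e-08) and 5.31-fold with the shRNA (adjusted p = 1.32e-09). Its relative Ltbp2, from a family of matrix proteins, fell 3.81-fold with the shRNA (adjusted p = 6.46e-09) and 1.24-fold with Yap1 WT (adjusted p = 0.0249), a call lost without Yap1 WT replicate 2 (edgeR adjusted p = 0.0873), Yap1 WT replicate 3 (0.0559) or GFP replicate 1 (0.0995), on library size alone (-0.18, adjusted p = 0.169) and on log2(TPM + 1) and log2(TPM + 0.1) (limma adjusted p = 0.31 and 0.317).

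All 5 other SMADs were higher with the shRNA than with GFP, where 39.2% of all genes were called higher, and 2 of 5 with Yap1 WT, near the 32.0% of all genes (median log2 fold changes 0.69 and 0.16). Smad9, another BMP SMAD, named after its values were seen, was called with the shRNA (28.3 ± 11.1 against 17.6 ± 0.811 CPM, adjusted p = 0.00658) although its libraries overlapped those with GFP. Smad1, which carries bone morphogenetic protein (BMP) signals, rose from 35.8 ± 1.10 CPM with GFP to 57.0 ± 4.05 with Yap1 WT (adjusted p = 1.29e-06) and 115 ± 3.80 with the shRNA (3.22-fold, adjusted p = 1.02e-10). The common partner Smad4 was at 68.0 ± 1.32, 71.0 ± 1.98 and 107 ± 3.50 CPM in the 3 groups, and rose with the shRNA (0.65, SE 0.05, adjusted p = 9.85e-08). With Yap1 WT, Smad4 was called higher only on library size alone (0.20, edgeR adjusted p = 0.00481) and on the TPM scales (0.22 each). Smad5, another BMP SMAD, rose with the shRNA (0.72, SE 0.07, adjusted p = 8.26e-07), and was 1.58 on log2(TPM + 0.1). With Yap1 WT, Smad5 was not called (-0.12, SE 0.07, adjusted p = 0.169), turned to 0.02 on library size alone and was called higher on log2(TPM + 1) (0.40, limma adjusted p = 0.0104) and on log2(TPM + 0.1) (0.42, adjusted p = 0.00984), but lower without Yap1 WT replicate 2 (-0.18, edgeR adjusted p = 0.0414). The inhibitory Smad6 rose with the shRNA (0.29, SE 0.07, adjusted p = 0.00152), a call lost with upper quartile scaling (0.15, edgeR adjusted p = 0.0544). With Yap1 WT Smad6 was at the threshold (0.16, SE 0.06, adjusted p = 0.0409), and that call held in 13 of 21 other settings. It was lost without any of the GFP replicates (edgeR adjusted p = 0.051, 0.156 and 0.0762) or without Yap1 WT replicate 2 or 3 (0.0747 and 0.163). The call was also lost with DESeq2 (adjusted p = 0.0568), with no count filter (edgeR adjusted p = 0.171) and at equal depth (edgeR adjusted p = 0.109).

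Of 9 other receptors tested, 4 rose and 5 fell with Yap1 WT and 4 rose and 2 fell with the shRNA (medians -0.19 and 0.07), against 63.8% and 78.3% of all genes called in either direction. The activin type II receptor Acvr2a rose 2.58-fold with the shRNA (adjusted p = 2.31e-09) and 1.43-fold with Yap1 WT (adjusted p = 5.32e-05). Its type I partner Acvr1b fell 2.75-fold with the shRNA (adjusted p = 1.29e-08) and was 1.20-fold lower with Yap1 WT (adjusted p = 0.00876), which library size alone ended (edgeR adjusted p = 0.145). Bmpr2, the BMP type II receptor, rose with both (0.47 and 0.38 on the log2 scale, adjusted p = 1.63e-06 and 8.14e-06). Endoglin (Eng), an endothelial and mesenchymal coreceptor, went from 334 ± 9.38 CPM to 294 ± 6.59 with Yap1 WT (adjusted p = 0.00375, and 0.354 on library size alone) and 255 ± 4.20 with the shRNA (adjusted p = 6.64e-06).

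Of 16 other inhibitors and modifiers, a list that also holds genes acting in favour of the signal, 11 rose and 3 fell with the shRNA (median 0.51), where 39.2% of all genes rose and 39.1% fell. With Yap1 WT, 7 rose and 4 fell (median 0.10), against 32.0% and 31.8% of all genes. The deubiquitinase Usp15, which stabilises the type I receptor and so acts in favour of the signal, rose 2.75-fold with the shRNA (adjusted p = 5.38e-10). Trim33, a ubiquitin ligase that acts on SMAD4, rose 2.74-fold (adjusted p = 7.86e-10), Ppm1a, a phosphatase of SMAD2 and SMAD3, 2.25-fold (adjusted p = 2.58e-09) and Smurf1, a ubiquitin ligase of receptors and SMADs, 1.83-fold (adjusted p = 9.95e-09). With Yap1 WT the same 4 genes rose by 0.56, 0.64, 0.66 and 0.21 on the log2 scale. Pmepa1, a further inhibitor known to be induced by TGF-beta and named here after its values were seen, rose by 0.39 and 0.77 (adjusted p = 7.90e-05 and 7.73e-08).

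Of 21 genes known to be induced by TGF-beta, 4 rose and 13 fell with Yap1 WT (median log2 fold change -0.39), where 31.8% of all genes fell. With the shRNA, 6 rose and 14 fell (median -0.95), where 39.1% of all genes fell. Lox, the collagen crosslinking enzyme, went from 344 ± 19.6 CPM with GFP to 262 ± 10.8 with Yap1 WT (adjusted p = 5.90e-05, and 0.0504 on log2(TPM + 1)) and 110 ± 5.36 with the shRNA (adjusted p = 8.64e-11). Ccn2, a matricellular growth factor that YAP is also known to induce, went from 2880 ± 31.8 to 1740 ± 59.9 and 1515 ± 68.0 CPM. The smooth muscle calponin Cnn1 fell from 335 ± 15.7 to 220 ± 34.7 and 91.6 ± 5.52 CPM, and the fibrillar collagen Col3a1 from 5227 ± 289 to 3272 ± 726 and 1128 ± 37.4 CPM.

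**Figure D5:**
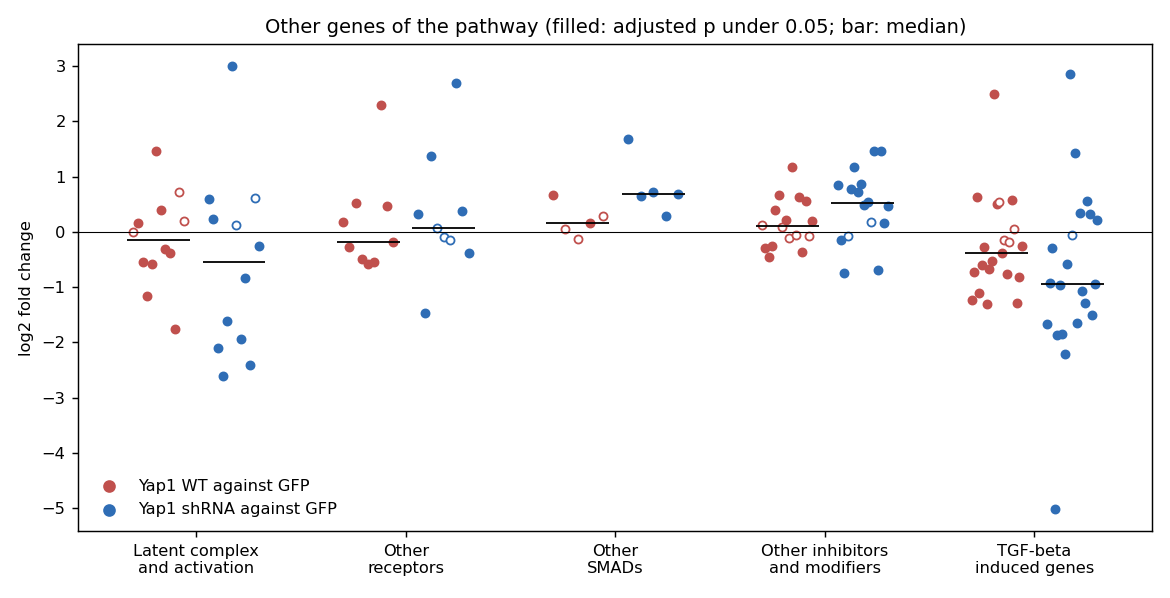
Log2 fold change against GFP (y axis) of the other pathway genes, each point a gene, in 5 lists (x axis) for Yap1 WT and for the shRNA, filled where called and open where not, with the median of a list as a bar. The medians of the induced genes are -0.39 and -0.95, and those of the other SMADs 0.16 and 0.69.

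The list of induced genes shares 4 genes with the fibroblast markers (Col1a1, Col1a2, Col3a1 and Postn) and 3 with those of smooth muscle and pericytes (Acta2, Cnn1 and Tagln), and these markers moved in the same libraries. Summed over 10 markers, fibroblast transcripts ran from 4593 to 5053 TPM with GFP, from 3488 to 4702 TPM with Yap1 WT and from 2223 to 2467 TPM with the shRNA, and of the 10 markers 3 rose and 6 fell with Yap1 WT, and 1 rose and 9 fell with the shRNA. Collagens make up most of that sum, Col1a1 at 2722 and Col3a1 at 1402 TPM with GFP, while the proteoglycan Dcn, named after its values were seen, rose 3.71-fold and 3.49-fold. The 9 smooth muscle and pericyte markers summed to between 11177 and 11674 TPM with GFP, 5895 and 7792 TPM with Yap1 WT and 5191 and 5557 TPM with the shRNA, where all 8 tested fell. Endothelial markers were scarce, at 18.7 to 19.9, 26.4 to 28.2 and 38.3 to 41.4 TPM summed over 9 genes. Of the 8 tested, 4 rose and 1 fell with Yap1 WT, and 7 rose and 1 fell with the shRNA. The 9 macrophage markers summed to between 57.9 and 63.6, 77.1 and 78.7, and 33.2 and 49.3 TPM in the same order of groups. Among the 7 tested, 2 rose and 1 fell with Yap1 WT, and 1 rose and 4 fell with the shRNA. C1qb and C1qc were too scarce to be tested in any comparison. Their reads summed to 8 and 13 with GFP, 8 and 4 with Yap1 WT and 0 each with the shRNA. The 8 epicardial markers summed to between 106 and 107, 70.3 and 81.6, and 48.5 and 53.6 TPM, with 2 higher and 5 lower with Yap1 WT and 3 higher and 4 lower with the shRNA. Tcf21, which is also on the fibroblast list and is named after its values were seen, went from 53.3 to 26.6 and 7.89 TPM within that sum. All these marker counts stand beside 32.0% of all genes called higher and 31.8% lower with Yap1 WT. With the shRNA the shares were 39.2% and 39.1%, and the epicardial counts were near them. What part these cell types, or the cardiomyocytes, had in the levels of the 10 genes was not tested.

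The transcripts most like each ligand over the 9 libraries were sought among 10440 genes averaging 5 CPM or more, by Pearson's correlation of log2 CPM. For Tgfb3 they were the water channel Aqp1 (r = 0.9985) and Phf24 (r = 0.9980). For Tgfb2 they were the guidance receptor Robo1 (r = 0.9940) and the cilium transport gene Ift88 (r = 0.9904). Tgfb1 had weaker matches in Uri1 (r = 0.9639) and Aida (r = 0.9638). The 9 points fall into 3 groups and share depth within a group, so these values describe the pattern and no more.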

How the data were processed

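The data are messenger RNA from 9 libraries, 3 per group. The members and lists were chosen with earlier results of these data known. The authors deposited expected counts per gene without normalization (89.8% whole to 2 decimals) and TPM scaled within each library. Log2 fold changes and DESeq2 q-values of the authors stand in the same table, per the file headers. The submitters' processing notes name HISAT2, Bowtie2, RSEM 1.3.1, DESeq2 1.4.5 and rn6 without roles, and strand is not stated, so antisense reads cannot be told apart. The 9 deposited FPKM columns were not used.

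Counts were rounded and all 9 libraries were filtered (filterByExpr), TMM-scaled and modelled by group alone, using edgeR 4.0.16 under R 4.3.3. The quasi-likelihood F test was two-sided, adjusted by Benjamini-Hochberg over 13708 genes and called at 0.05. The SE is the log2 fold change over the square root of F. Every adjusted p in the text is from this fit unless another is named.

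Named were the 10 genes, Yap1, up to 4 genes of each list with the lowest p over the 3 groups, and 2 genes most like each ligand. Replicate libraries differed by more than sampling noise (chi-square over its degrees of freedom 2.26 to 10.8). Alternatives were other scalings, filters and tools (DESeq2 1.42.0, limma 3.58.1 with voom or on log2(TPM + 1) and log2(TPM + 0.1)), the 6 compared libraries alone, equal depth, the replicate number as a block and each library left out.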

Additional observations from a re-analysis of the deposited data

How the results depend on the processing

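Over 21 other settings, 584 of 630 fold changes of the 10 genes kept their direction and their side of the threshold, 28 lost the call, 5 gained it and 13 changed sign. Calls of Tgfb3, Smad7 and Skil held in all 21 settings and all 3 comparisons. The count of the 10 genes called lower with Yap1 WT was 2 in place of 4 on library size alone and on log2(TPM + 1) and log2(TPM + 0.1), where Smad2 and Tgfbr2 missed the threshold. No gene that changed sign in a comparison was called in that comparison in the fit reported. With Yap1 WT against GFP, Tgfbr1 was 0.01 with RLE scaling and with DESeq2, 0.12 on library size alone, 0.13 and 0.15 on log2(TPM + 1) and log2(TPM + 0.1), 0.04 at equal depth and 0.03 without GFP replicate 1. Leaving out each library in turn gave -0.05 to 0.03 for Tgfbr1 and -0.13 to 0.05 for Tgfb2. Tgfb2 was 0.10 on library size alone, 0.08 on both TPM scales, 0.01 without GFP replicate 1 and 0.05 without Yap1 WT replicate 2. Smad5 was 0.02 on library size alone and 0.40 and 0.42 on the TPM scales. With the shRNA, Tgfbr3 was -0.01 with upper quartile scaling. Between the Yap1 vectors, Smad6 was 0.01 with upper quartile scaling and Bmpr2 -0.07 on both TPM scales. The cause was not tested. The split of all calls with Yap1 WT was 4391 higher and 4360 lower, 5637 and 3344 on library size alone and 5419 and 2894 on log2(TPM + 1). With the shRNA it was 5371 and 5362, 6294 and 4242 on log2(TPM + 1), and 4732 and 6091 with upper quartile scaling. Between the vectors it was 4273 and 4289, 5561 and 3467 with upper quartile scaling and 5344 and 3585 on library size alone. Deviations from the group means correlated at -0.03 to 0.09 between same-numbered libraries and at -0.11 to 0.06 between the others. With 3 libraries a group such small values cannot decide whether the numbers pair the libraries. With the replicate number as a block, 8812, 10752 and 8590 genes were called in place of 8751, 10733 and 8562, and of the 10 genes Tgfb1 with the shRNA was no longer called (adjusted p = 0.0569). At equal depth, of the 10 genes Smad2 and Smad3 with Yap1 WT and Tgfb1 with the shRNA lost their calls, and Smad2 with the shRNA gained one.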

Other observations

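The Yap1 WT libraries were uneven in Yap1. Some of the 10 genes also varied between them, while Tgfbr1 hardly did (30.7, 29.6 and 29.8 CPM). The library with the most Yap1, replicate 2 at 812 CPM against 559 and 622, was also the lowest of its group in Tgfb3 (191 CPM), Tgfb2 (386 CPM), Tgfbr2 (104 CPM), Tgfbr3 (10.5 CPM) and Tgfb1 (84.0 CPM), and the highest in Smad7 (143 CPM), Skil (171 CPM) and Smad2 (45.2 CPM). With 3 libraries these are values without a test. Some library of a group is always its lowest or highest, and the share of all genes with replicate 2 at an extreme was not computed. Yap1 WT replicates 1 and 2 also differed most of all replicate pairs over all genes (chi-square over its degrees of freedom 10.8). Between the groups, Smad7 and Skil were highest with the shRNA, where Yap1 was lowest. Leaving Yap1 WT replicate 2 out gave a log2 fold change against GFP of -2.09 for Tgfb3 and 1.22 for Smad7, in place of -2.18 and 1.32.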
